A study of Mus musculus with 6 samples.

Results

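The 3-beta-hydroxysteroid dehydrogenases (3beta-HSDs) of the mouse testis were measured by all array probes whose gene name in the deposited files was Hsd3b1, Hsd3b2, Hsd3b3, Hsd3b4, Hsd3b5, Hsd3b6 or Hsd3b7. This gave 9 probes for 7 genes, of 55681 non-control probes with 34844 gene or locus names on the array. The family was chosen because its members differed in these samples, so the differences of its members are a description and carry no test. Each of 6 arrays held Cy3-labelled RNA of a single whole testis from a male C57BL/6 mouse aged 5 months. In 3 arrays the mouse was wild type (WT), and in 3 it was AROM+, a transgenic mouse that overexpresses aromatase, which converts androgens to oestrogens. The labels give no treatment for either group. The labels do not describe the transgene; as background, the AROM+ line is known to carry human aromatase driven by a ubiquitin promoter, so the transgene is not limited to a cell type of the testis. The comparison asks how the enzymes of this family differ in level between the testes of AROM+ and WT mice.

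A 3beta-HSD of the classical kind oxidises the 3-beta-hydroxyl group of pregnenolone, dehydroepiandrosterone and androstenediol and moves a double bond of the steroid. This step is needed to make progesterone, testosterone and every other active steroid hormone, and in the testis it takes place mainly in Leydig cells. Mouse Hsd3b1 and Hsd3b6 encode the forms known from gonads and adrenal gland. Hsd3b2 and Hsd3b3 encode dehydrogenases known mainly from kidney and liver. Hsd3b4 and Hsd3b5 encode 3-ketosteroid reductases, known mainly from kidney and from male liver respectively, which inactivate dihydrotestosterone rather than make hormone. Hsd3b7 is a distant relative that acts on hydroxylated cholesterol in bile acid synthesis. The genes Hsd3b1 to Hsd3b6 are the products of tandem duplication, so probes for them can resemble each other.

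The probe sequences are shown because the statement that the members moved apart needs probes that tell close copies from each other. All 9 probes were 60 bases long, and 8 of them lay on the minus strand of chromosome 3, while that of Hsd3b7 lay on the plus strand of chromosome 7 (mm9, the build of the files). Of 34 pairs of probes for different genes, 4 shared an identical run of 15 or more bases, and the median of the longest shared run was 6 bases. The longest run, of 23 bases, was shared by the probes of Hsd3b4 and Hsd3b5, and a run of 16 bases was shared by a probe of Hsd3b2 and that of Hsd3b3. The stretches that hold these runs, with the run in capitals, are as follows.
Hsd3b5, A_55_P2111980, bases 31 to 60, chr3:98422576-98422605: ttgATACCTTTATGAAGCTCAAAGAAcaat
Hsd3b4, A_55_P1969665, bases 24 to 53, chr3:98303027-98303056: cccATACCTTTATGAAGCTCAAAGAAaaga
Hsd3b2, A_55_P2036547, bases 1 to 30, chr3:98515084-98515113: gccCAATGGAAGAAACAATtatttgtcaat
Hsd3b3, A_55_P1958804, bases 27 to 56, chr3:98545459-98545488: tgaagctCAATGGAAGAAACAATaaatatt

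The other pairs over the limit were Hsd3b3 with Hsd3b4 and Hsd3b3 with Hsd3b5, each over 15 bases. The other Hsd3b2 probe and the Hsd3b6 probe are shown whole. They shared no run longer than 6 and 7 bases with a probe of another member. Hsd3b2 lay lower in AROM+, and the groups overlapped for Hsd3b6.
Hsd3b2, A_55_P2023114, chr3:98515703-98515762: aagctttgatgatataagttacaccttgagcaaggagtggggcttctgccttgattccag
Hsd3b6, A_52_P253567, chr3:98610436-98610495: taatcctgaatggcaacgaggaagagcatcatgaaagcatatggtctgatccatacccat

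The longest identical run that the Hsd3b1 probe shared with another member's probe was 11 bases, and for the Hsd3b7 probe it was 8. Runs miss likeness that is broken by single changes. In local alignments, the probes of Hsd3b4 and Hsd3b5 had 41 identical bases over 48 columns. Those of Hsd3b1 and Hsd3b3 had 41 over 57, and A_55_P2036547 of Hsd3b2 and the Hsd3b3 probe had 26 over 30. Whether a transcript of one member binds the probe of another was not tested, since only the probe sequences were compared. Probes A_55_P2023114 and A_52_P253567 start at bases 1067 and 733 of their transcripts. Short shared runs between probes at different places cannot decide the question.

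Values are log2 of the background-corrected intensity minus the 75th percentile of the same array, so that 0 is the level of that percentile and a difference of 1 is a doubling. They are given for replicates 1, 2 and 3 in that order. Each probe is compared only with itself across arrays, because a brighter probe need not mean more transcript. The filter on dim probes required all 3 arrays of WT, of AROM+ or of both to be well above background, and 8 of the 9 probes passed. The members lay on different sides of the comparison. Of the 8 kept probes, 5 lay lower in every AROM+ testis than in every WT testis (Hsd3b2 on both probes, Hsd3b3, Hsd3b4 and Hsd3b5). The probes of Hsd3b1 and Hsd3b7 lay higher in every AROM+ testis, and the groups overlapped for Hsd3b6. Over all 42636 kept probes, the groups did not overlap for 58.1%, with 40.4% lower and 17.7% higher in AROM+. Since a probe passes through the group where it is high, and the members were chosen on this contrast, nothing is read from these counts. The median difference over all kept probes was −0.19.

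**Figure D1:**
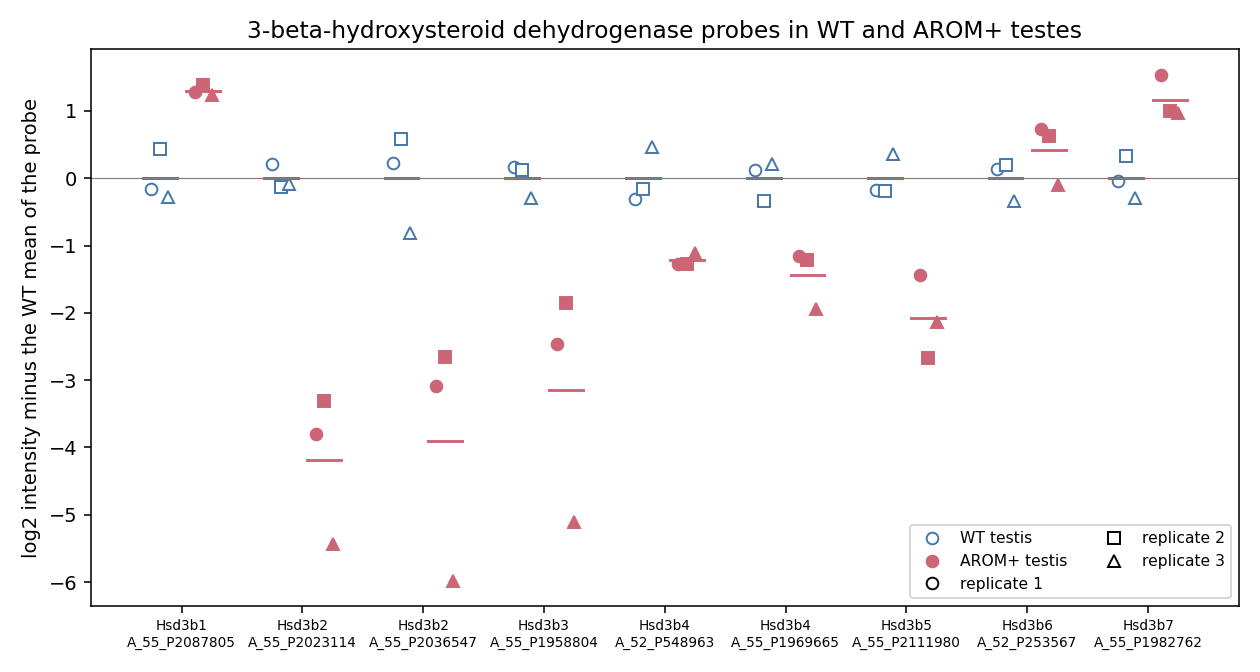
Log2 intensity of each 3beta-HSD probe in every testis, minus the WT mean of that probe (open blue, WT; filled red, AROM+; symbols mark the replicate number; bars, group means; 3 testes a group). Hsd3b1 and Hsd3b7 lay above WT in all AROM+ testes, and the Hsd3b2, Hsd3b3, Hsd3b4 and Hsd3b5 probes lay below, with replicate 3 farthest down for Hsd3b2 and Hsd3b3. The AROM+ values of Hsd3b5 and A_52_P548963, and replicate 3 of A_55_P2036547, were not well above background.

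Among the forms known from steroid-making glands, Hsd3b1 was higher in AROM+ testes. Its probe A_55_P2087805 (chr3:98656127-98656186) read 2.00, 2.59 and 1.87 in WT and 3.43, 3.54 and 3.39 in AROM+. Every AROM+ testis was above every WT testis, with a gap of 0.80 between the nearest 2, and the AROM+ testes lay closer together than the WT testes did. The means were 2.15 ± 0.38 and 3.45 ± 0.08 (SD, n = 3), a difference of 1.30 with a standard error from limma of 0.19, or 2.46-fold. In intensity the WT testes read 17960, 22204 and 15529 and the AROM+ testes 58640, 51725 and 44701, and no spot was saturated.

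Hsd3b6, the other form of these glands, did not separate the groups. Its probe A_52_P253567 read 2.13, 2.20 and 1.67 in WT and 2.73, 2.63 and 1.90 in AROM+. Replicates 1 and 2 of AROM+ were above every WT testis, and replicate 3 fell inside the WT range. The means were 2.00 ± 0.29 and 2.42 ± 0.46 (SD, n = 3), a difference of 0.42 with a limma standard error of 0.25, which became 0.68 without AROM+ replicate 3.

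Hsd3b2, a dehydrogenase known from kidney, had the widest difference of the family. On A_55_P2023114 it read −0.16, −0.49 and −0.45 in WT and −4.17, −3.68 and −5.80 in AROM+. The groups were far apart: the lowest WT testis was 3.19 above the highest AROM+ testis. The means were −0.37 ± 0.18 and −4.55 ± 1.11 (SD, n = 3), which is a difference of −4.18 with a limma standard error of 0.50, or 18.2-fold lower. Without AROM+ replicate 3 the difference was −3.56. In intensity this was 4028, 2634 and 3118 in WT against 303, 347 and 76.4 in AROM+, with every array well above background.

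The second Hsd3b2 probe lies in the same gene at chr3:98515054-98515113 and went the same way. A_55_P2036547 read −2.70, −2.34 and −3.73 in WT and −6.01, −5.58 and −8.90 in AROM+. Every AROM+ testis was again below every WT testis, and replicate 3 was the lowest in each group. AROM+ replicate 3 was not well above background on this probe, with an intensity of 8.94, so its value is uncertain. The difference was −3.91 with a limma standard error of 0.86. It was −2.87 without that testis, and −2.28 when the background was modelled by normexp. The AROM+ testes kept the same order on both probes, with replicate 2 highest and replicate 3 lowest.

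Hsd3b3, the dehydrogenase known from liver and kidney, was also lower. A_55_P1958804 (chr3:98545455-98545514) read −0.95, −1.001 and −1.41 in WT and −3.58, −2.97 and −6.22 in AROM+. The WT testes lay within a narrow band, and the AROM+ testes lay well below it, spread far more widely than WT. The means were −1.12 ± 0.25 and −4.26 ± 1.73 (SD, n = 3), a difference of −3.14 with a limma standard error of 0.77, or 8.82-fold lower. Without AROM+ replicate 3 the difference was −2.16.

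Of the 3-ketosteroid reductases, Hsd3b4 was lower by a smaller amount. A_55_P1969665 (chr3:98303020-98303079) read −1.67, −2.13 and −1.58 in WT and −2.95, −3.01 and −3.74 in AROM+. The groups did not overlap, and the lowest WT testis was 0.83 above the highest AROM+ testis. The means were −1.79 ± 0.29 and −3.23 ± 0.44 (SD, n = 3), so that the difference was −1.44 with a limma standard error of 0.25, or 2.71-fold lower. The other Hsd3b4 probe, A_52_P548963, was well above background on 1 WT array and on no AROM+ array, and was not kept. It read −7.35, −7.21 and −6.59 in WT and −8.32, −8.32 and −8.17 in AROM+, at intensities of 13.9 to 44.2. At that brightness the order of the arrays says little about Hsd3b4.

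Hsd3b5, the reductase of male liver, was close to the limit of the array. A_55_P2111980 read −6.47, −6.49 and −5.94 in WT, with all 3 arrays well above background, and −7.73, −8.97 and −8.44 in AROM+, with none. The AROM+ level therefore has only a bound: against a floor on each AROM+ array (the dimmest signal that counted as well above background, or the Hsd3b5 signal if that was brighter), Hsd3b5 was at least 1.37-fold lower in AROM+. The measured means were −6.30 ± 0.31 and −8.38 ± 0.62 (SD, n = 3), and their difference of −2.08 became −0.57 with normexp. The Hsd3b5 probe was thus the member just inside the filter on dim probes, and A_52_P548963 of Hsd3b4 the one outside it.

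Hsd3b7, the bile acid enzyme and the only member outside the chromosome 3 cluster, was higher. Its probe A_55_P1982762 (chr7:134947251-134947310) read −1.29, −0.92 and −1.54 in WT and 0.29, −0.26 and −0.28 in AROM+. Every AROM+ testis was above every WT testis, by 0.65 at the nearest. The means were −1.25 ± 0.31 and −0.08 ± 0.32 (SD, n = 3), a difference of 1.17 with a limma standard error of 0.21, or 2.25-fold.

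The AROM+ testes did not vary alike across the family. Replicate 3 was the lowest array for 4 of the 5 lower kept probes, the exception being the dim Hsd3b5 probe. Relative to the mean of AROM+ replicates 1 and 2, its shift was −1.88 and −3.11 on the Hsd3b2 probes and −2.95 on Hsd3b3. For Hsd3b6 the shift was −0.78, for Hsd3b4 −0.76, for Hsd3b7 −0.29 and for Hsd3b1 −0.09. The same testis was lower than the other AROM+ testes for Lhcgr, Cyp11a1 and Star of Leydig cell steroid synthesis, but not for Leydig cell genes in general. Lhcgr, the receptor for luteinising hormone, read 1.00, 0.54 and −1.99 in AROM+. Cyp11a1, the side-chain cleavage enzyme, read 3.51, 3.48 and 2.91. Star, which carries cholesterol into mitochondria, read 0.16, −0.81 and −1.54. The testis was not the lowest for Cyp17a1 (2.77, 3.95 and 2.95) or Hsd17b3 (−3.52, −2.08 and −2.19), which make androgens. Among 9 Leydig cell markers outside the enzymes of steroid synthesis, it was the lowest AROM+ testis for 3 (Lhcgr, Prlr and Vcam1). It was the highest for 4 (Ptgds, Pdgfra, Klk1b21 and Klk1b24). In WT, replicate 3 was also the lowest for Star, Lhcgr, Cyp11a1 and Cyp17a1, and in the family for Hsd3b1, Hsd3b3, Hsd3b6, Hsd3b7 and A_55_P2036547 of Hsd3b2. The part of any difference between these mice in the family's values was not tested.

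**Figure D2:**
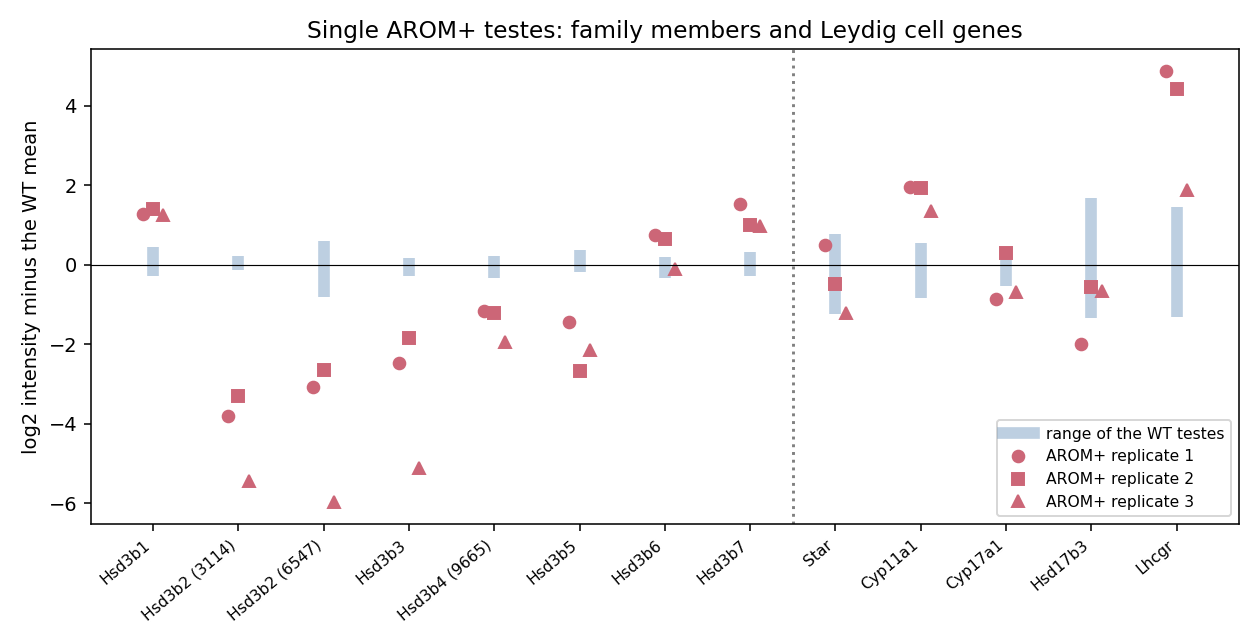
Log2 intensity of each AROM+ testis minus the WT mean, for 8 family probes (left of the dotted line; the last 4 digits of a probe name tell probes of a gene apart) and 5 Leydig cell genes (right), with the range of the WT testes as blue bars. AROM+ replicate 3 (triangles) was far below the other AROM+ testes for Hsd3b2, Hsd3b3 and Lhcgr and beside them for Hsd3b1.

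On the chromosome, the members that lay lower were next to each other, while the sizes of their differences were unequal. The 8 cluster probes span 353 kb from Hsd3b4 to Hsd3b1 (chr3:98303020-98656186, mm9), in the order Hsd3b4, Hsd3b5, Hsd3b2, Hsd3b3, Hsd3b6 and Hsd3b1. The 4 genes that were lower occupy the low-coordinate side, and Hsd3b6 and Hsd3b1 lie next to each other at the high-coordinate end. Hao2, a peroxisomal hydroxy acid oxidase 22 kb beyond the Hsd3b1 probe, rose in AROM+. It read −2.08, −1.79 and −2.34 in WT and 0.72, 0.55 and −0.89 in AROM+, with no overlap, a difference of 2.20 ± 0.42 (SE) and a limma adjusted p of 0.00874. On the other side, 186 kb from the Hsd3b4 probe, Phgdh of serine synthesis did not pass the test on either probe (−0.05 and 0.04; limma adjusted p = 0.687 and 0.762). Reg4 at 263 kb read 0.18 (adjusted p = 0.722, limma), and the Zfp697 probe was not kept.

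**Figure D3:**
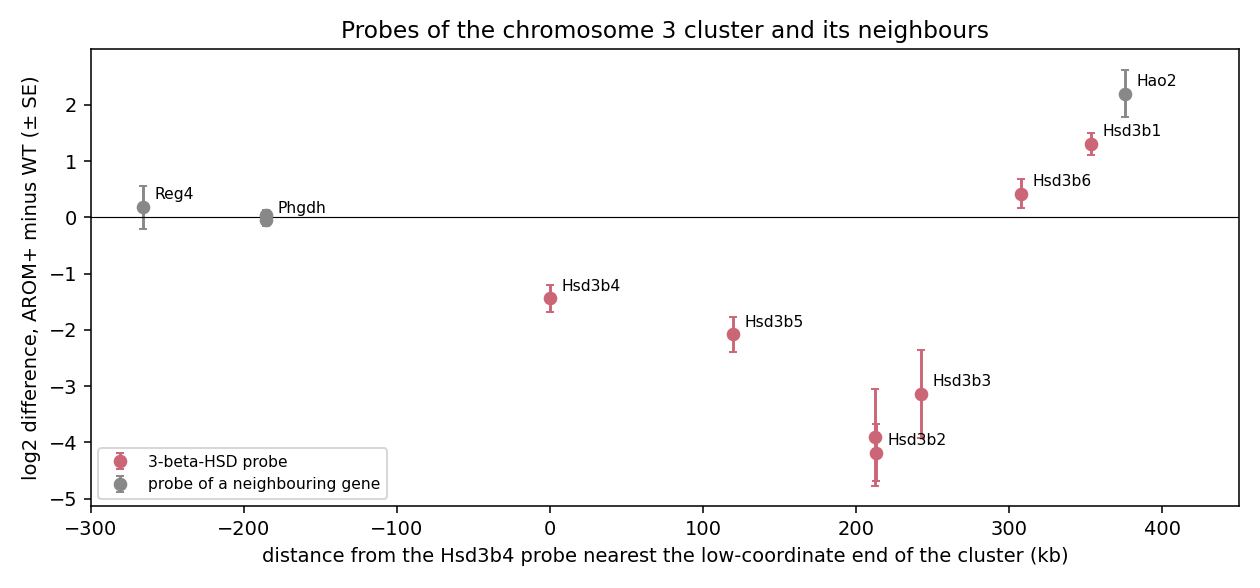
Difference in log2 intensity between AROM+ and WT (± limma SE, 3 testes a group) for kept probes of the chromosome 3 cluster (red) and of the neighbours Hao2, Phgdh and Reg4 (grey), against the distance in kb from the Hsd3b4 probe A_55_P1969665. The lower members lie together from Hsd3b4 to Hsd3b3, and Hsd3b6, Hsd3b1 and Hao2 lie above 0 at the right; the Hsd3b5 point rests on AROM+ values that were not well above background.

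The promoters of the members were compared because 4 neighbouring members lay lower. RefSeq windows from 250 bases before the start (GRCm38.p6, a newer build than that of the probes) were found for all 7 genes, 9 windows in all. The longest run shared by windows of different genes was 24 bases, between Hsd3b3 and Hsd3b5, which were both lower in AROM+. The other lower members did not have it. The window of Hsd3b2 shared at most 8 bases with those of Hsd3b3 and Hsd3b5, and the windows of Hsd3b4 at most 9. The 60 bases around it are shown with the shared run in capitals, which runs from −105 to −82 relative to the Hsd3b3 start and from −153 to −130 relative to the Hsd3b5 start.
Hsd3b3, chr3:98763192-98763251, minus strand: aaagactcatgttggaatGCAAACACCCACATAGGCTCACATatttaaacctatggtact
Hsd3b5, chr3:98645646-98645705, minus strand: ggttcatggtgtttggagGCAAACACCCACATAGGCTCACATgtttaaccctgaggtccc

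A set of 5 motifs were searched on both strands of the 9 windows. The letters AGATAA, which GATA factors can bind, were found in the windows of Hsd3b1 and Hsd3b6, in both windows of Hsd3b3 and in 1 of 2 windows of Hsd3b4, against 9.99% of 32851 promoters of the table. They thus occurred in windows of Hsd3b1, which lay higher in AROM+, of Hsd3b6, whose groups overlapped, and of genes that lay lower. No window held AAGGTCA (an NR5A1 site, in 4.08% of all promoters), TATAAA (12.4%), TGANTCA (an AP-1 site, 6.75%) or the full palindromic oestrogen response element (0.0639%). A match is a description of letters, and its absence says nothing of sites outside these windows.

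For each member's brightest probe above background on all arrays, the 3 named genes of 21839 compared whose profile over the 6 testes was nearest were found. Distances are Euclidean, in log2 units after each probe's own mean was removed, and all profiles share the same 6 arrays and the same split into groups. Hsd3b1 was nearest to Ccdc8, Armcx2 and Rac3, a small GTPase, at 0.17 to 0.21. Hsd3b7 was nearest to Wipi1 of autophagy, Mfap2 of microfibrils and Blvrb, a biliverdin reductase, at 0.14 to 0.16. Hsd3b4 was nearest to Fabp1, the fatty acid binder of liver, Il20ra, a cytokine receptor chain, and Pcdh15, a protocadherin, at 0.18 to 0.22. Hsd3b6 was nearest to Pde4d, a cyclic AMP phosphodiesterase, Glb1, the lysosomal galactosidase, and Decr2 of peroxisomes, at 0.18 to 0.25. Hsd3b2 and Hsd3b3 had no gene as near by this measure as the other members had. The distance is not scaled, so a wide difference alone can make it large. The nearest to Hsd3b2 were Aldh3a1, an aldehyde dehydrogenase, at 2.03, Bhmt, which remethylates homocysteine, at 2.12 and Tbx19 at 2.97. The nearest to Hsd3b3 were Slc35a5 at 2.05, Aldh3a1 at 2.45 and Ppapdc1a at 2.49. Over the 6 testes, which include the split into groups, the Pearson r of these genes was 0.95 to 0.98 with Hsd3b2 and 0.84 to 0.96 with Hsd3b3. Aldh3a1 and Bhmt differed by −3.09 and −3.08, but their AROM+ replicate 3 (−3.68 and −0.27) stood level with the others, unlike that of Hsd3b2. Tbx19, with −4.68, −4.22 and −5.07 in AROM+, was lowest in replicate 3, by less than Hsd3b2. Slc35a5 (−1.78, −1.97 and −4.46) and Ppapdc1a (−2.09, −2.01 and −3.40) did have a low AROM+ replicate 3 as Hsd3b3 did.

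Genes that act around the 3beta-HSD step were read with limma from lists of the pathway, where a gene is its brightest kept probe. Over all kept probes 44.4% passed the test, 14.0% higher and 30.4% lower. Of 14 genes of cholesterol supply and side-chain cleavage, which make the substrate of the family, 9 rose and 1 fell, with a median difference of 0.80. Cyp11a1 rose by 1.75 ± 0.37 (SE; limma adjusted p = 0.0113), Soat1, which esterifies cholesterol, by 1.68 and the lysosomal exporter Npc1 by 1.44. Lipe, a hormone-sensitive lipase, fell by 0.65. Star did not pass the test, at −0.40 ± 0.61 (SE; limma adjusted p = 0.617) and −0.69 on its other probe, and single testes moved its value: on leaving out each in turn, its brighter probe ran from −1.02 (without WT replicate 3) to 0.0077 (without AROM+ replicate 3). Hsd3b1 thus lay higher beside a higher Cyp11a1, while Hsd3b6 and Star overlapped between groups.

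Of 18 enzymes that act on the products of 3beta-HSD, 15 were measured, 4 rose and 2 fell, and the median difference was −0.30. Akr1c14, a 3-alpha-hydroxysteroid dehydrogenase of the dihydrotestosterone pathway, read −3.91, −3.82 and −3.86 in WT and 0.54, −0.32 and −0.52 in AROM+. Its AROM+ values were all far above WT, and the rise was 3.76 ± 0.26 (SE; limma adjusted p = 0.0016). Srd5a1, a 5-alpha-reductase, rose by 1.46 on its brighter probe and read −0.32 on the other. Por and Cyb5a, which pass electrons to P450 enzymes, rose by 0.70 and 0.50, and both calls were lost with spike-in scaling (adjusted p = 0.0707 and 0.106, limma) and without WT replicate 3 (0.0588 and 0.0552), that of Cyb5a also without WT replicate 1 (0.0543). Hsd17b2, which oxidises testosterone, fell by 0.80, and Cyp11b2, the aldosterone synthase, fell by 0.42, a call lost without WT replicate 1 or 3. The androgen makers Cyp17a1 (−0.42 ± 0.36, SE) and Hsd17b3 (−1.08 ± 0.77) did not pass (limma adjusted p = 0.367 and 0.283). On leaving out each testis in turn, Hsd17b3 ran from −1.75 (without WT replicate 1) to −0.24 (without WT replicate 2) and Cyp17a1 from −0.78 (without AROM+ replicate 2) to −0.19 (without AROM+ replicate 1). Leaving out WT replicate 2 gave 5 that fell, and leaving out WT replicate 1 or 3 gave 1, while 2 rose without WT replicate 3. Mouse Cyp19a1, the native aromatase, read −2.77, −3.28 and −2.69 in WT and −3.31, −2.99 and −3.34 in AROM+, and the groups overlapped. Its difference of −0.30 did not pass (limma adjusted p = 0.22) but did with normexp (−0.43; 0.0177) and without WT replicate 2; whether its probe binds the transgene's RNA is not known.

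Of 16 trophic receptors and regulators of these enzymes, 11 rose and none fell by limma, and none was lower at an unadjusted p under 0.05 (median difference 0.74). Lhcgr rose by 3.72 ± 0.94 (SE; limma adjusted p = 0.0197) from −3.98, −2.43 and −5.20 in WT, a call lost without WT replicate 1 or 3 or AROM+ replicate 1 or 2 (adjusted p = 0.0561, 0.0640, 0.0540 and 0.0567, limma). The transcription factor Cebpb rose by 2.09, the prolactin receptor Prlr by 1.38, and the oestrogen receptor Esr1 by 1.38. The other Esr1 probes read 0.96 and −0.60, and its call was lost without WT replicate 1 or 3 or AROM+ replicate 2 (0.0632, 0.0704 and 0.0562). The number that rose was 7 without WT replicate 1.

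Of 15 bile acid and oxysterol enzymes, which act on the same sterols as Hsd3b7, 11 were measured, 2 rose and 1 fell (median difference 0.28). Cyp39a1, an oxysterol hydroxylase, rose by 0.91, a call lost without WT replicate 3 or AROM+ replicate 1. Cyp27a1, the sterol 27-hydroxylase, rose by 0.79 ± 0.25 (SE; limma adjusted p = 0.043), a call lost on leaving out any single testis but WT replicate 2 and AROM+ replicate 3, and with quantile normalization (0.0561), spike-in scaling (0.0975) or no filter on dim probes (0.0727). Cyp46a1, which hydroxylates cholesterol in brain, fell by 0.44, a call lost on leaving out replicate 1 or 2 of either group. Cyp7b1, the oxysterol 7-alpha-hydroxylase, read 0.63 ± 0.26 (SE; limma adjusted p = 0.0835) and passed without AROM+ replicate 2 (0.0463). Cyp7a1, Cyp8b1, Akr1d1 and Baat of the liver pathway were not kept. Of the 11 measured genes 8 did not pass, while over all kept probes 44.4% passed. Nothing about Hsd3b7 is read from this count.

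In whole testis, fewer cells of a type and less RNA per cell cannot be told apart, so marker lists are given beside the family. Over all kept probes, 14.0% were called higher and 30.4% lower. Of 9 Leydig cell markers outside the enzymes of steroid synthesis, all well above background on every array, 4 rose and none fell, by limma. Their summed level, in multiples of the array's 75th percentile, was 24.6 to 32.2 in WT and 24.4 to 39.0 in AROM+. The markers Lhcgr, Prlr, Sult1e1 and Pdgfra were the 4 that rose, and each was higher in every AROM+ testis than in every WT testis. Lhcgr and Prlr are the same probes that were counted among the regulators, and the Lhcgr call was lost on leaving out some single testes. The summed level overlapped between groups. Ptgds, the brightest of the 9 and so the largest part of the sum, was the only one with a negative difference. It read 3.68 in WT and 2.96 in AROM+ on average, a difference of −0.72 that did not pass (limma adjusted p = 0.0966). Of 10 macrophage markers, 8 rose and 2 fell (Csf1r and Aif1), and their sum was 29.0 to 34.2 in WT and 48.2 to 66.8 in AROM+. That sum lay above WT in every AROM+ testis, although Aif1, the brightest of the 10, fell. Of 10 germ cell markers 6 fell and none rose, with sums of 209 to 283 and 178 to 187. Of 9 Sertoli cell markers 2 rose, with sums of 19.4 to 22.1 and 20.5 to 28.8. The part of these cell types in the family's values was not tested.

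Markers of liver and kidney, in which the lower members are known, and of the adrenal cortex and the epididymis were read the same way. A marker was tested only if its probe was kept, and 14.0% of all kept probes were called higher and 30.4% lower. Of 8 liver and kidney markers, 5 were well above background on every array. Of the 8, 2 fell (Apoa1 and Slc34a1) and none rose, and Umod and Slc22a6 were above background on no array. The sums were 0.575 to 0.725 in WT and 0.636 to 0.742 in AROM+. Serpina1a, the brightest of the 8 and so the largest part of the sum, did not pass (0.36, limma adjusted p = 0.141). Of 6 adrenal cortex markers, 4 were well above background on every array, and 1 of the 6 fell (Cyp11b2). The sums were 1.31 to 3.62 in WT and 2.18 to 6.02 in AROM+. Mrap, the brightest of the 6 and so the largest part of the sum, did not pass (1.11, limma adjusted p = 0.107). Cyp11b1 and Mc2r, which define the adrenal cortex, were above background only in AROM+ replicate 1. Of 9 markers of the epididymis and efferent duct, 5 were well above background on every WT array and 4 on every AROM+ array. Of the 9, 1 rose and 2 fell, and Lcn5, Lcn8 and Adam7 were above background on no array. The sums of the 9 were 1.33 to 1.51 in WT and 0.797 to 1.32 in AROM+. The part of these tissues in the values of Hsd3b2, Hsd3b3, Hsd3b4 and Hsd3b5 was not tested.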

How the data were processed

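One-colour arrays of 3 WT and 3 AROM+ testes were read from the scanner files. The spot intensity deposited by the authors is the processed signal, background-corrected by Agilent Feature Extraction 10.7.3.1 per the file headers, or 10.10 per the submitters' processing notes. The authors also deposited a table of log2 values; 93.9% to 94.1% of them differed from the logged processed signal by a single constant on each array, within 0.01. The WT columns had medians of −3.12, −3.11 and −3.09, and the AROM+ columns −3.05, −3.09 and −3.02. How that constant was chosen is not given in the sources used here.

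Each array's 75th percentile (3698 to 5452 in intensity) was subtracted on the log2 scale. Of 62976 spots per array, 3671 control spots and 123 to 192 outlier spots were left out, and between 76.6% and 80.6% were well above background. Spots of a probe were averaged. AROM+ and WT were compared by lmFit and eBayes (limma 3.58.1, R 4.3.3) over 42636 kept probes, with Benjamini-Hochberg adjustment and a threshold of 0.05, after a test on simulated data. Labels name single testes, and p-values measure the spread between these 3 testes a group; that number limits the precision.

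The members and lists were chosen with earlier results of these data known. Named are all member probes, up to 4 called genes in each direction per list plus Star, Cyp17a1, Hsd17b3, Cyp7b1, Cyp27a1 and Lhcgr, the 3 nearest profiles of each member, and neighbours within 300 kb; a few of these genes are not reported here. Cyp19a1 was named as the native form of the overexpressed enzyme, and marker genes come from the marker lists. Insl3 has no probe under that name here and was not used. All arrays lie on 1 slide, WT in row 1 and AROM+ in row 2, so row and group cannot be told apart. Same-numbered WT and AROM+ arrays share a slide column, so replicate number and column cannot be told apart either. Alternatives were normexp (offset 50), quantile, spike-in and median scaling, the deposited table, other filters, a variance trend, a replicate block, the mean of a gene's probes and leaving out each array.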

Additional observations from a re-analysis of the deposited data

How the results depend on the processing

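The direction of every member difference was the same under each alternative run, and 3 differences moved by more than the spread between replicates, all with normexp: A_55_P2036547 of Hsd3b2 to −2.28, A_52_P548963 of Hsd3b4 to −0.43 and Hsd3b5 to −0.57, all dim probes. Scaling on the spike-ins gave 3894 higher probes in all, 2 higher enzymes after 3beta-HSD and 1 higher bile acid enzyme. With no filter the bile acid list had 1 higher and 2 lower. With the mean of a gene's kept probes it had 4 higher. Leaving out single arrays gave 3822 to 5614 higher and 6776 to 11427 lower probes in all, 7 to 11 higher in the cholesterol list, 2 to 5 higher and 1 to 5 lower among enzymes after 3beta-HSD, 7 to 11 higher regulators, and 0 to 3 higher and 0 to 1 lower in the bile acid list. Same-numbered WT and AROM+ testes did not deviate together (r = 0.07, −0.18 and 0.04 over 40583 probes). With 3 testes a group this cannot exclude a pairing. With a replicate block 5080 probes were higher and 10053 lower, and the bile acid list had 1 higher and 0 lower. The causes were not tested. Levels near background limit Hsd3b5 and the dimmer Hsd3b2 and Hsd3b4 probes.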
